A study of Mus musculus with 7 samples.

Results

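C1q macrophages of mouse mammary tumors that held no UMI of the Mrc1-type macrophage genes were described from single-cell mRNA counts of 7 tumors. A UMI (unique molecular identifier) is a tag by which Drop-seq, a droplet method of single-cell RNA-seq, counts each captured mRNA molecule once. A barcode with 200 to 6000 genes was taken as a cell. A cell was a member if C1qa, C1qb and C1qc together had at least 3 UMIs, if Epcam, Krt8 and Krt18 together had at most 1, and if Mrc1, Folr2, Lyve1, Cd163, F13a1 and Pf4 had 0. The members were thus chosen by their UMIs of these 12 genes, which took in 1217 of 15047 cells, or 8.09%. The members are called Mrc1-negative C1q cells below, where "negative" means that no UMI was read, and not that the mRNA was absent.

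All 7 tumors grew in mammary glands of mice of the genotype MMTV-PyMT;HK2 f/f on a C57BL/6 background, 1 library per mouse. In these mice the mouse mammary tumor virus promoter drives the polyoma virus middle T oncogene in mammary epithelium, and the hexokinase 2 gene carries loxP sites. The mice are the study's controls, in which Hk2 was not deleted. The labels give their genotype as wild type, and the methods describe 7 daily doses of tamoxifen in controls as well. Tumors were sampled 3 months after they became palpable according to the labels. The titles form a CB series (replicates 1, 2, 3 and 4) and a WT series (replicates 5, 7 and 8), and what separates these series is not stated. Tumors with HK2 deletion were not analysed here.

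C1q is the recognition molecule of the classical complement pathway. Its chains A, B and C are made mainly by macrophages, including those in tumors, rather than by the liver that makes most other complement proteins. Tissue macrophages differ among themselves. Cells with the mannose receptor gene Mrc1, the folate receptor gene Folr2 or the hyaluronan receptor gene Lyve1 are known from connective tissue and vessel walls of the mammary gland, whereas other C1q cells are known for antigen presentation on MHC class II molecules. In that pathway, peptides made by lysosomal proteases are loaded on class II dimers of an alpha and a beta chain with the help of the invariant chain and of H2-DM.

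The members were compared within each mouse with 3 other sets of cells. The 471 Mrc1-positive C1q cells met the same limits but held at least 1 UMI of the Mrc1-type genes. The 1647 C1q-negative immune cells had no C1q UMI and at least 1 UMI of Ptprc or Tyrobp. The 433 C1q-negative myeloid cells had no C1q UMI, at most 1 epithelial UMI, at least 2 UMIs of Lyz2, Fcer1g and Tyrobp, and none of 14 lymphoid genes, and 356 of them were also among the C1q-negative immune cells. UMIs were summed per mouse and set, levels are given as UMIs of a gene per 1000000 UMIs of the summed cells (CPM), and genes used by a gate were left out of the tests that involve that gate. Differences are given as log2 fold changes of members over the other set, where 1 stands for 2 times the level, and a gene is called where its p, adjusted for the number of genes tested, is under 0.05.

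The libraries held 1133 to 4780 cells each, with 962677 to 4471473 UMIs in cells. Members had a median of 563 UMIs per cell, Mrc1-positive C1q cells 667, C1q-negative immune cells 516 and C1q-negative myeloid cells 490. The summed members of a mouse held 36425 to 366803 UMIs. Between libraries, 5 cell barcodes were shared. Replicate 4 alone held 571 members, or 46.9% of them, and the other mice held 54 to 200. Per mouse there were 15 to 194 Mrc1-positive C1q cells, 54 to 451 C1q-negative immune cells and 22 to 155 C1q-negative myeloid cells, and replicate 2 held the 15.

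Members made up 2.72 to 11.9% of the cells of a tumor. The shares were 2.79% in replicate 1, 2.72% in replicate 2, 8.31% in replicate 3, 11.9% in replicate 4, 7.35% in replicate 5, 9.12% in replicate 7 and 10.1% in replicate 8. The 2 tumors with the lowest shares, replicates 1 and 2, had 95% binomial intervals (Wilson) of 2.17 to 3.57% and 2.09 to 3.53%, and those of the other 5 tumors began at 6.16% or above. These intervals cover counting error only. This order changed with the cells counted. In 1 setting members that held UMIs of other lineages (described below) were left out, with the share still taken of all cells. There replicate 8 fell from 10.1 to 1.77% (interval 1.15 to 2.71%), between replicate 1 (1.63%) and replicate 2 (2.01%). As a share of immune cells, those with a UMI of Ptprc, Tyrobp or C1q, replicate 2 was lowest at 11.8% and replicate 5 (21.5%) stood beside replicate 1 (22.1%). The share was 6.44% ± 4.51 (SD, n = 4) in the CB series and 8.84% ± 1.37 (SD, n = 3) in the WT series. A two-sided exact permutation test gave p = 0.457 for this difference of 2.40 percentage points, where the smallest p the design allows is 0.0571. The difference had the other sign when the share was taken of immune cells (-0.037 points) or when members with UMIs of other lineages were left out (-0.824 points). The latter became 0.119 points without replicate 8.

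**Figure D1:**
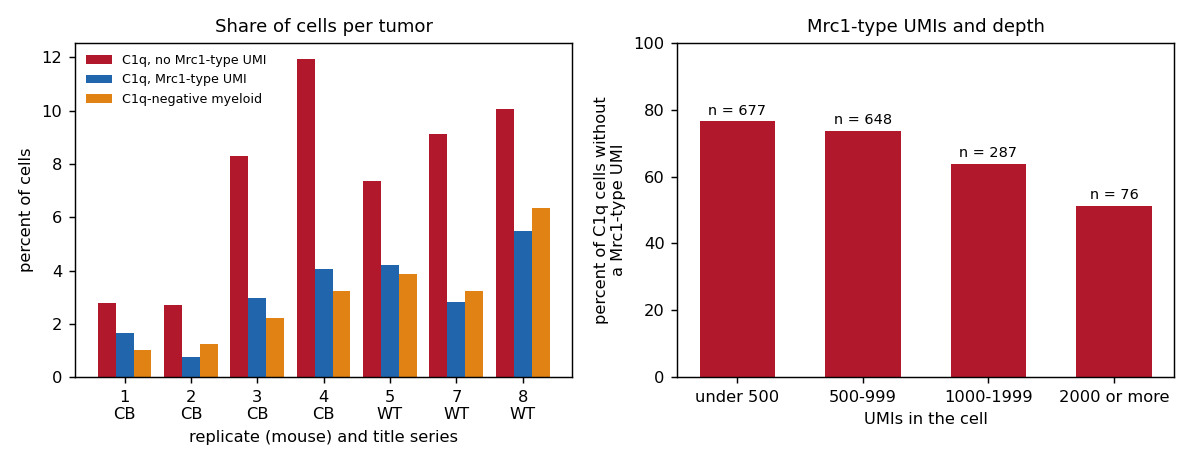
Left, percent of the cells of each tumor (replicate and title series on the x axis) that were C1q cells without Mrc1-type UMIs (red), C1q cells with them (blue) or C1q-negative myeloid cells (orange); right, percent of C1q cells without a Mrc1-type UMI by the number of UMIs in the cell, with the number of C1q cells above each bar. The red bars run from 2.72% in replicate 2 to 11.9% in replicate 4, and the right-hand bars fall from 76.5% under 500 UMIs to 51.3% at 2000 UMIs or more.

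Of the 1688 C1q cells, 72.1% held no Mrc1-type UMI, and this share lay between 62.5 and 78.3% in the 7 mice. It depended on the depth of the cell. It was 76.5% of 677 cells with under 500 UMIs, 73.6% of 648 cells with 500 to under 1000, 63.8% of 287 cells with 1000 to under 2000, and 51.3% of 76 cells with 2000 or more. How many members held a Mrc1-type mRNA that was not captured is not known. At the C1q limit, the 111 members with a C1q sum of 3 had 19540 CPM of Apoe, 4722 CPM of Ctss and 464 CPM of H2-M2. The 132 cells that met the other limits with a sum of 2 had 15512, 3801 and 253 CPM of these genes. The 5737 cells with a sum of 0 that met the other limits had 967, 354 and 18.4 CPM. The levels also ran in steps across the Mrc1-type limit. Cells with 0, 1 and at least 2 Mrc1-type UMIs had 692, 374 and 71.2 CPM of H2-M2, 20968, 13558 and 8017 CPM of Cd74, and 7315, 14426 and 17518 CPM of Lyz2.

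The genes of the 3 C1q chains lie side by side on the minus strand of chromosome 4 (GRCm38, chr4:136880129-136898803), in 18675 bases that hold no other annotated gene. Since they chose the members, their levels are a description. C1qa, the A chain, stood at 3548 to 6396 CPM (median 4496), and its highest value was that of replicate 4. C1qb, the B chain, stood at 4874 to 7522 CPM (median 6057). C1qc, the C chain, stood at 2973 to 4623 CPM (median 4200.4), with the lowest value in replicate 8. C1qa made up 26.1 to 32.3% of the C1q UMIs of the members in 6 mice and 38.2% in replicate 4. The median member held 9 C1q UMIs.

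The label of the members as macrophages was set beside 16 macrophage genes, which summed to 10448 to 13644.5 CPM (median 12471) in members. None of them was at 0 over all members. No gene of the T-cell or endothelial lists was at 0 either, so this alone does not test the label. Those 2 lists summed to 54.9 to 270.5 CPM and 0 to 81.8 CPM. Csf1r, the receptor of the growth factor CSF1 on which most macrophages depend, stood at 365 to 619 CPM (median 494). Adgre1, which encodes the F4/80 antigen, stood at 119 to 268 CPM (median 192). Fcgr1, the high-affinity receptor for IgG, stood at 148 to 439 CPM (median 217). The highest level of Csf1r was 1.70 times the lowest among the 7 mice, beside 25.8 times for Ccl3 and 41.1 times for Ccl4. Ptprc or Tyrobp, which mark immune and myeloid cells, had a UMI in 81.5% of the members, a share that the rule did not use.

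Markers of other cells were also found in the members. The dendritic-cell list summed to 140.4 to 659 CPM (median 466) in the members, and of its 10 genes Flt3 and Cd209a were at 0 in every mouse. Mzb1, a gene of plasma cells, and Pdgfra, a receptor of fibroblasts, were also at 0. The T-cell list summed to 54.9 to 270.5 CPM in the members and 253 to 4265 CPM in the C1q-negative immune cells. The tumor epithelium list, whose Epcam, Krt8 and Krt18 the rule limited, summed to 806 to 5436 CPM and 5704 to 28951 CPM in these sets. The neutrophil list summed to 0 to 1655 CPM (median 44.5) in the members, the fibroblast list to 18.5 to 2309.6 CPM (median 54.9) and the erythroid list to 0 to 19191 CPM (median 577). The highest value of the fibroblast and erythroid lists was that of replicate 8, which stood apart. The part of these other cells in the results below was not tested. Each comparison was repeated without cells that held a UMI of the fibroblast, endothelial or erythroid lists or of PYMT, the oncogene of the tumor cells. Cells with a UMI of the lymphoid lists were also left out, except among the C1q-negative immune cells, where they were kept. These limits left 708 of the 1217 members, and 20 of the 114 members of replicate 8. They left 1114 of the 1647 C1q-negative immune cells.

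The rule sets the members against the C1q-negative immune cells, so this contrast is given as a description and without p-values. Among the genes named by the rule, Ms4a7, C3ar1, Apoe and Vcam1 had the highest folds in members, and Gzmb, Plet1, Plac8 and Ly6c2 the lowest. Ms4a7, a membrane protein gene of mature macrophages, stood at 1110.1 to 2663 CPM (median 1358) in members and 0 to 44.6 CPM (median 18.7) in C1q-negative immune cells (log2 fold change 5.98 ± 0.25 (SE)). Apoe, the lipid-carrier apolipoprotein E, stood at 27164 to 37818 CPM (median 29300.5) against 137 to 1488 CPM (median 745) (log2 fold change 5.70 ± 0.37 (SE)). Vcam1, an adhesion receptor, stood at 185 to 764 CPM (median 479.8) against 0 to 59.5 CPM (median 11.1) (log2 fold change 5.35 ± 0.38 (SE)). The ranges of the 2 sets did not overlap for any of these 3 genes. These genes were named for their high folds in a contrast that the rule used, so nothing is read from this. Cx3cr1, the receptor of the membrane-bound chemokine fractalkine, had a log2 fold change of 4.83 ± 0.28 (SE), and C3ar1, the receptor of the complement fragment C3a, one of 5.84 ± 0.51. The other genes named by the rule were Lpcat2, Ccl12, Fcgr4, H2-M2 and Hpgds, with log2 fold changes from 4.53 to 4.93. Leaving out 1 mouse moved some of these by over 1.5 times, to 6.45 for C3ar1 without replicate 8, 5.71 for Ccl12 without replicate 4 and 5.32 for H2-M2 without replicate 2.

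Gzmb, a cytotoxic granule protease, had the lowest fold (log2 fold change -4.84 ± 0.43 (SE)), with 0 to 96.2 CPM (median 0) in members and 149 to 2152 CPM (median 641) in C1q-negative immune cells. The other genes named on this side were Plet1, Plac8, Ly6c2, Fxyd3, Sfn, Vps37b, Ccl5, Cyr61 and Cd24a, with log2 fold changes from -3.83 to -3.02. That of Gzmb was -5.47 without replicate 7, and that of Ly6c2 was -4.43 without replicate 8. Several of these, such as Fxyd3 and Sfn, are epithelial genes, and the rule limits epithelial UMIs in the members but not in the cells they were set against. Of 1532 genes tested, 708 were called at an adjusted p under 0.05, or 46.2%. In the gene lists, which were written with earlier results of these data known, 21 of 21 tested lysosomal genes, 15 of 15 tested macrophage genes and 6 of 6 tested MHC class II genes were called higher in members, beside 22.5% of all tested genes called higher and 23.8% called lower. Nothing is read from these counts, since the rule used this contrast.

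Against the Mrc1-positive C1q cells, the Mrc1-negative C1q cells were higher in MHC class II genes, in Il1b and in Cd72, and lower in the chemokines Ccl8, Ccl7 and Ccl2 of the monocyte chemoattractant family, in Retnla and in 7 of 14 tested lipid-handling genes. Of 16 general macrophage genes, 1 was called, which is near the 10% called over all tested genes. Both sets come from the same 7 mice, and the tests below come from edgeR, whose quasi-likelihood model of the summed counts had a term for each mouse. The p-values were adjusted by the Benjamini-Hochberg method over all 1026 genes that passed a filter on low counts. That filter asks for enough counts in as many sums as 1 set holds. A gene high in 1 set alone can thus pass it, and can then hardly be called the other way. Of the 1026 genes, 103 were called at an adjusted p under 0.05, or 10%, with 38 higher (3.7%) and 65 lower (6.34%) in members. Without replicate 4, 67 were called. Without the filter on low counts 189 genes were called and the balance turned, with 60.3% of them higher in members in place of 36.9%. The 6 Mrc1-type genes were left out, but the sets were split on UMIs of the same cells, so the test describes which other genes went with those 6 genes. The p-values measure how the difference within a mouse varied over the 7 mice, along with counting noise.

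Most tested MHC class II genes rose in this comparison. Of 11 genes on the list, 6 passed the filter on low counts, 5 were called higher and none lower, beside 3.7% of all tested genes called higher, and their median log2 fold change was 0.84, against 0.03 over all genes tested. Cd74, the invariant chain that guides class II dimers to the endosome, stood at 12579.9 to 39149 CPM (median 21728) in members and 5571 to 17799 CPM (median 10472) in Mrc1-positive C1q cells. The ranges overlapped, but the member value was the higher one in 7 of 7 mice (log2 fold change 1.04 ± 0.13 (SE), adjusted p = 2.88e-05). H2-Ab1, the beta chain of the I-A dimer, stood at 7822 to 21273 CPM (median 16316) and 4409.9 to 11047 CPM (median 9201), and was higher in members in 7 of 7 mice (log2 fold change 0.90 ± 0.11 (SE), adjusted p = 2.20e-05). H2-Aa, its alpha chain, stood at 6694 to 18184 CPM (median 13703) and 5077 to 9878 CPM (median 7444) (log2 fold change 0.78 ± 0.12 (SE), adjusted p = 0.000239). Members were the higher set in every mouse for these 3 genes. The dendritic-cell list was also higher in members by its median, at 140.4 to 659 CPM (median 466) against 141 to 441 CPM (median 258), and of its 10 genes only 1 was tested and it was not called. The part of dendritic cells in this result was not tested.

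H2-Eb1, the beta chain of the I-E dimer, stood at 6509 to 15872 CPM (median 13525) in members and 4610.4 to 8041 CPM (median 6699.6) in Mrc1-positive C1q cells (log2 fold change 0.90 ± 0.13 (SE), adjusted p = 0.000127). C57BL/6 mice are known to lack the I-E alpha chain, so that this mRNA is not matched by an I-E dimer at the cell surface. H2-DMb1, a chain of the H2-DM peptide loader, stood at 421 to 1016 CPM (median 696) and 235 to 566 CPM (median 345) (log2 fold change 0.73 ± 0.19 (SE), adjusted p = 0.0142). Its call was lost in 6 alternative settings and without replicate 1, 3 or 5, and the log2 fold change was 0.46 when every cell was thinned to 500 UMIs. H2-DMa, the other chain, stood at 523 to 951 CPM (median 764) and 268 to 968 CPM (median 611) and was not called (log2 fold change 0.32 ± 0.15 (SE), adjusted p = 0.187). Cd74, H2-Ab1, H2-Aa and H2-Eb1 remained called when cells were thinned to 500 UMIs, with log2 fold changes of 0.92, 0.74, 0.62 and 0.82. With a minimum of 1000 UMIs per cell, which left 5 mice, Cd74 and H2-Ab1 kept their call, and H2-Aa and H2-Eb1 lost it (log2 fold changes 0.90 and 0.86, adjusted p = 0.0662 and 0.0672).

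Class II promoters are known for a Y box, an inverted CCAAT element bound by NF-Y. Since 5 of these genes were called in 1 direction, the windows of 250 bases before and 50 bases after the start of 3 of the called genes are shown, from RefSeq on GRCm38.p6. Of 5 class II genes looked up, 4 had a window, H2-Ab1 had none, and Cd74 was not looked up. Capitals mark GATTGG or its reverse complement, and both strands were searched. H2-Aa lies on the minus strand (chr17:34287774-34288073), H2-Eb1 (chr17:34305617-34305916) and H2-DMb1 (chr17:34152941-34153240) on the plus strand, and each is printed 5′ to 3′ along its gene:
H2-Aa: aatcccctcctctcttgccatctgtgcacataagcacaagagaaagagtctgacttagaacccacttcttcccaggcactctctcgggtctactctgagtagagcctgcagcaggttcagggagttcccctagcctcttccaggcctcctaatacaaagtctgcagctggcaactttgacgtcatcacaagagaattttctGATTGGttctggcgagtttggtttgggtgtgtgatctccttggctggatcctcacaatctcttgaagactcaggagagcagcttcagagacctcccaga
H2-Eb1: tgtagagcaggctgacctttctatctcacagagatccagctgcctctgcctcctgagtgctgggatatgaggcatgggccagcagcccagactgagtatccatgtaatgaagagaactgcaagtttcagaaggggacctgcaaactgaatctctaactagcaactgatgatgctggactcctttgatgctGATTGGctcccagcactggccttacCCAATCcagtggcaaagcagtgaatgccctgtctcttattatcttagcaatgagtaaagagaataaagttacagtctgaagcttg
H2-DMb1: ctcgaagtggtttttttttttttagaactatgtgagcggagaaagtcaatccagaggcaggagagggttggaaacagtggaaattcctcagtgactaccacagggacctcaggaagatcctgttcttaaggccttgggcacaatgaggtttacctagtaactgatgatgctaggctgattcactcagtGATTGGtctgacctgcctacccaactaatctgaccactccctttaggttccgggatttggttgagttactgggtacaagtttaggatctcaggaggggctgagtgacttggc
The match lay 49 bases before the start in H2-Aa and 62 bases before it in H2-DMb1. H2-Eb1 had matches 60 and 35 bases before the start. H2-DMa, the tested class II gene with a window that was not called, had 2 windows, 1 with no match and 1 with a match 199 bases before the start. GATTGG occurred in 16.1% of all 32851 windows of this length, and the longer CTGATTGG, which H2-Aa and H2-Eb1 held, in 4.10%. A match is a description of the letters and not a sign of binding.

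H2-M2, which lies outside class II in the class I region of chromosome 17 (GRCm38, chr17:37480851-37483552, minus strand), encodes a nonclassical class I heavy chain. It was put forward as a marker of these cells from the same data, so its test is not independent evidence. It stood at 203 to 929.7 CPM (median 412) in members and 28.8 to 313 CPM (median 161) in Mrc1-positive C1q cells, higher in members in 6 of 7 mice (log2 fold change 1.63 ± 0.27 (SE), adjusted p = 0.000332). In the WT series alone, with 3 mice, it was not called (log2 fold change 1.56, adjusted p = 0.0549). It was the 1 class I gene called among 8 tested, beside 10% of all tested genes called, and the median log2 fold change of these was 0.03. A UMI of H2-M2 was found in 21.6% of members, 8.92% of Mrc1-positive C1q cells, 2.08% of C1q-negative myeloid cells and 0.315% of 5720 epithelial cells with a median of 1002 UMIs. After random thinning of all cells to 300 UMIs these shares were 15.0, 5.83, 1.84 and 0.0548%. The class I heavy chain genes are near copies of each other, and how the authors' counting split reads between them is not given in the sources used here.

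**Figure D2:**
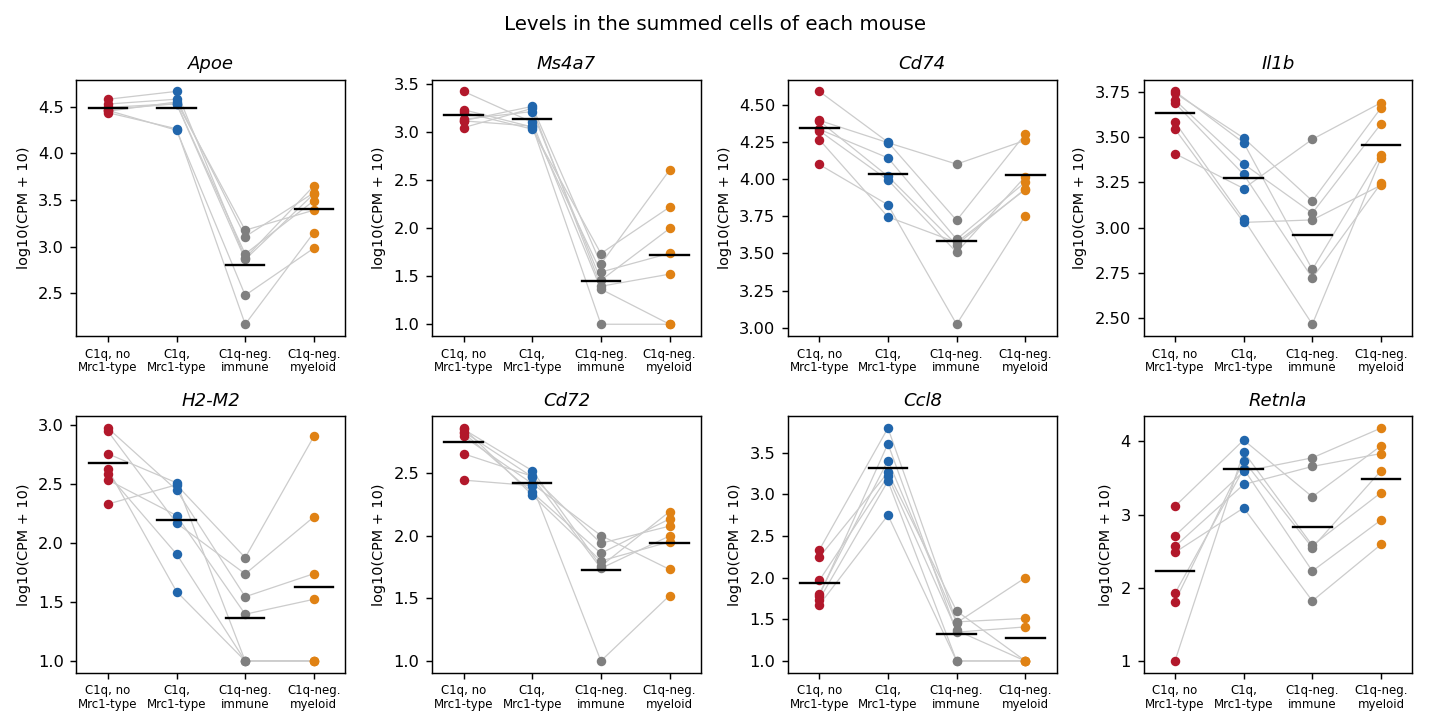
Levels of 8 genes in the summed cells of each mouse, as log10 of CPM plus 10, in C1q cells without Mrc1-type UMIs (red), C1q cells with them (blue), C1q-negative immune cells (grey) and C1q-negative myeloid cells (orange); grey lines join the sums of 1 mouse and black bars are means of the 7 plotted values. The red and blue points of Apoe and Ms4a7 overlap, Cd74, Il1b and Cd72 are higher in the red than in the blue points in all 7 mice, and Ccl8 and Retnla are lower in all 7.

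The inflammatory genes did not move as a group. Of 20 tested immediate early and inflammatory genes, 2 were called higher and 1 lower, beside 3.7% and 6.34% of all tested genes. Il1b, the cytokine interleukin-1 beta, stood at 2552 to 5649.9 CPM (median 4859) in members and 1058 to 3115 CPM (median 1955) in Mrc1-positive C1q cells, with the member value higher in all 7 mice (log2 fold change 1.16 ± 0.13 (SE), adjusted p = 1.63e-05). Cd83, a membrane protein of activated antigen-presenting cells, was also called (log2 fold change 0.64 ± 0.14 (SE), adjusted p = 0.0051), and lost its call with cells thinned to 500 UMIs (adjusted p = 0.428), without the mouse as a block and in either title series alone (adjusted p = 0.0625 in CB and 0.239 in WT). Ier3, an early response gene, was lower (log2 fold change -1.30 ± 0.26 (SE), adjusted p = 0.00174), and lost its call with at least 1000 UMIs per cell and in the WT series alone (adjusted p = 0.268 and 0.297). Fos, Jun, Dusp1 and Zfp36 were tested and not called. Tumors were digested in collagenase at 37 °C before capture, and the part of this step in such genes was not tested.

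The other genes with the largest rises were of varied kinds. Cd72, an inhibitory receptor best known from B cells, stood at 268 to 714 CPM (median 653) in members and 201 to 321 CPM (median 251) in Mrc1-positive C1q cells (log2 fold change 1.10 ± 0.18 (SE), adjusted p = 0.00037). Cytip, an adaptor that binds cytohesins at sites of adhesion, had the largest fold among the 10 genes named by the rule on the higher side (log2 fold change 1.55 ± 0.27 (SE), adjusted p = 0.00045). Zmynd15, which encodes a MYND zinc-finger protein, stood at 319 to 935 CPM (median 549) against 80.3 to 345 CPM (median 212) (log2 fold change 1.36 ± 0.20 (SE), adjusted p = 0.00013). Fam46c, which encodes a noncanonical poly(A) polymerase, was higher with a log2 fold change of 1.38 ± 0.26 (SE). Cyp4f18, a cytochrome P450 that acts on leukotriene B4, the ARF-like GTPase gene Arl5c and the noncoding RNAs AW112010 and AU020206 complete the list, with log2 fold changes from 0.93 to 1.28. Members were the higher set in all 7 mice for each of these genes, as the rule for naming them required. In the WT series alone, with 3 mice, Cd72, Fam46c, Zmynd15, Arl5c and AU020206 lost their call (adjusted p = 0.274, 0.239, 0.063, 0.063 and 0.0958). In the CB series alone, Cyp4f18, Arl5c and AU020206 lost it (adjusted p = 0.081, 0.309 and 0.21). Arl5c was also lost without replicate 5 or 7, and AU020206 without replicate 4 or 5 and with DESeq2.

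Of the 20 genes named by the rule in this comparison, higher or lower, 9 overlap a gene of the other strand. Zmynd15 overlaps Cxcl16, which was also called higher and is described with the chemokines, and Pltp overlaps the lysosomal gene Ctsa. The others and their partners are Cytip (Gm13546), Cyp4f18 (Zfp961), Cd72 (Tesk1), Il1b (Il1bos), Maf (Gm15655), Igf1 (Igf1os) and Ccl2 (Gm17268), and the class II gene H2-Eb1 overlaps Gm20513. Whether the counting used strand is not given in the sources used here, so reads of such a pair may not have been told apart.

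Of 19 chemokines on the list, 12 were tested, 2 were called higher in members and 6 lower, beside 3.7% and 6.34% of all tested genes. Both higher calls, Cxcl16 and Ccl3, were lost in at least 2 settings. Ccl8 (GRCm38, chr11:82115185-82116799) and Ccl7 (chr11:82045712-82047525), of the monocyte chemoattractant family, had the largest differences among the chemokines. Ccl8 stood at 37.0 to 204 CPM (median 54.1) in members and 551 to 6223 CPM (median 1821) in Mrc1-positive C1q cells, and the ranges did not overlap (log2 fold change -4.93 ± 0.24 (SE), adjusted p = 4.41e-11). Ccl7 stood at 29.7 to 587 CPM (median 219.6) against 698 to 3989.9 CPM (median 1409), again without overlap (log2 fold change -2.86 ± 0.23 (SE), adjusted p = 1.42e-07). Ccl2, the main ligand of CCR2, was lower by the same test (log2 fold change -1.82 ± 0.24 (SE)), as were Ccl12 (-1.36 ± 0.17), Ccl6 (-1.94 ± 0.29) and Ccl9 (-1.26 ± 0.20). With at least 1000 UMIs per cell Ccl12 and Ccl9 lost their call (adjusted p = 0.176 and 0.0502), and Ccl9 also lost it in the WT series alone (adjusted p = 0.0665). Cxcl16, a membrane-bound ligand of CXCR6, a receptor found on T cells, was higher, at 817 to 1292 CPM (median 1197) against 575 to 839.9 CPM (median 700.0) (log2 fold change 0.68 ± 0.12 (SE), adjusted p = 0.000697). It lost its call with at least 1000 UMIs per cell (adjusted p = 0.117) and in the WT series alone (adjusted p = 0.218).

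Ccl3 and Ccl4, neighbors on chromosome 11 (GRCm38, chr11:83647844-83649355 and chr11:83662584-83664683), encode the chemokines MIP-1 alpha and MIP-1 beta. Ccl3 was put forward as a marker of the members from these data, so its test is not independent evidence. Ccl3 stood at 115 to 2959 CPM (median 1035) in members and 241 to 2255 CPM (median 692) in Mrc1-positive C1q cells, and was called higher by a small margin (log2 fold change 0.55 ± 0.15 (SE), adjusted p = 0.0199). The call was lost in 7 alternatives, with a log2 fold change of 0.18 (adjusted p = 0.642) when cells were thinned to 500 UMIs, and without any 1 of replicates 1, 3, 4, 5 and 7. Ccl4 stood at 229.7 to 9431 CPM (median 2372) and 937 to 8669.5 CPM (median 1633) and was not called (log2 fold change 0.36 ± 0.21 (SE), adjusted p = 0.299), but it was called without replicate 8 (log2 fold change 0.55, adjusted p = 0.0101). A UMI of Ccl3 was found in 30.6% of members, 28.7% of Mrc1-positive C1q cells, 7.62% of C1q-negative myeloid cells and 0.297% of epithelial cells.

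The genes that accompany the Mrc1-type genes in tissue macrophages were lower in members. Of 23 such genes outside the gate, 7 were tested, 6 were called lower and none higher, beside 6.34% of all tested genes called lower. Against either C1q-negative set 3 of the 23 passed the filter. Some of the 7 thus passed it here through the Mrc1-positive C1q cells, where they are high, and could hardly be called higher. The direction of this count is therefore partly set by the filter. Retnla, a secreted protein of alternatively activated macrophages, stood at 0 to 1289.5 CPM (median 295) in members and 1224 to 10438 CPM (median 4209) in Mrc1-positive C1q cells (log2 fold change -3.75 ± 0.45 (SE), adjusted p = 2.20e-05). Maf, the transcription factor c-Maf, stood at 74.2 to 219.6 CPM (median 90.2) against 329 to 741 CPM (median 403), without overlap (log2 fold change -2.17 ± 0.22 (SE), adjusted p = 3.71e-06). Igf1, insulin-like growth factor 1, and Selenop, the selenium carrier selenoprotein P, were lower with log2 fold changes of -2.18 ± 0.31 (SE) and -0.98 ± 0.13 (SE). Selenop lost its call with at least 1000 UMIs per cell (adjusted p = 0.133). Ccl7 and Ccl8 were the other 2. Timd4, Vsig4, Cd209g and Tslp, which belong to the same list, were at 0 in all members. The list was written with earlier results of these data known.

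Genes of lipid handling and debris uptake were lower or not called. Of 14 tested, 7 were called lower and none higher, beside 6.34% of all tested genes called lower. Against either C1q-negative set 8 genes of this list passed the filter. Some of the 14, such as Pltp, thus passed it through the Mrc1-positive C1q cells, where they are high, and could hardly be called higher in members. Pltp, phospholipid transfer protein, stood at 54.1 to 191 CPM (median 89.1) in members and 401 to 782 CPM (median 498) in Mrc1-positive C1q cells, without overlap (log2 fold change -2.50 ± 0.22 (SE), adjusted p = 5.16e-07). Fabp5, a fatty acid binding protein, stood at 120.2 to 888 CPM (median 297) against 403 to 1203 CPM (median 673) (log2 fold change -1.39 ± 0.20 (SE), adjusted p = 9.21e-05). Trem2, a lipid-sensing receptor, was lower in 5 of 7 mice (log2 fold change -1.02 ± 0.23 (SE), adjusted p = 0.00509), and its call was lost without replicate 4 (adjusted p = 0.0528). Spp1, the matrix protein osteopontin, was lower in 6 of 7 mice (log2 fold change -1.49 ± 0.37 (SE), adjusted p = 0.0126), and lost its call without replicate 3, 4 or 7 (adjusted p = 0.0725, 0.0508 and 0.0613). Apoe stood at 27164 to 37818 CPM (median 29300.5) and 17626 to 45925 CPM (median 33941) and was not called (log2 fold change 0.02 ± 0.14 (SE), adjusted p = 0.963). Gpnmb, Abca1 and Msr1 were the other called genes. Of the 7 called genes, DESeq2 and the WT series alone each called 3, and the test without the mouse as a block called 1. Without replicate 4, 5 of the 7 were testable and 2 of these were called.

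Lysosomal genes were lower in members or not called. Of 21 tested, 4 were called lower and none higher, beside 6.34% of all tested genes called lower. Ctsd and Ctsl, the proteases cathepsin D and L, were lower with log2 fold changes of -1.29 ± 0.19 (SE) and -1.28 ± 0.27 (SE). Ctsb and Grn differed less (-0.52 ± 0.11 and -0.46 ± 0.13). With cells thinned to 500 UMIs, the value of Ctsd was -0.47 and it was no longer called (adjusted p = 0.0725). Ctsb lost its call in 5 settings, thinning among them (adjusted p = 0.118). Grn lost it in 9 settings and without replicate 4, 5 or 7 (adjusted p of up to 0.969), Ctsl in 3, and without the mouse as a block none of the 4 was called. Ctss, cathepsin S, which trims the invariant chain in class II loading, stood at 6639 to 9444 CPM (median 8342) in members and 5032 to 8068 CPM (median 6468) in Mrc1-positive C1q cells and was not called.

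Of 16 tested macrophage identity genes, Maf alone was called, beside 10% of all tested genes. Nothing is read from this count, which is near that share. Csf1r stood at 365 to 619 CPM (median 494) in members and 282 to 604 CPM (median 501) in Mrc1-positive C1q cells (log2 fold change 0.03 ± 0.18 (SE), adjusted p = 0.941). Ms4a7 (log2 fold change 0.17 ± 0.17 (SE), adjusted p = 0.569) was not called either. A p that misses the threshold does not show that these genes are alike, and the signs of Apoe, Csf1r and Ms4a7 varied with the setting. Of 5 tested complement receptors and regulators, 3 were lower and none higher, beside 6.34% of all tested genes called lower. Cfp, which encodes properdin, the stabilizer of the alternative pathway, fell (log2 fold change -1.75 ± 0.22 (SE), adjusted p = 2.64e-05), as did Itgam, a chain of complement receptor 3 (log2 fold change -1.61 ± 0.35 (SE), adjusted p = 0.00355), and C5ar1, the receptor of C5a (log2 fold change -0.79 ± 0.21 (SE), adjusted p = 0.0173). The call of C5ar1 was lost in 7 settings and without replicate 4 (adjusted p = 0.181), and reached an adjusted p of 0.529 without the filter on low counts. That of Itgam was lost in the WT series alone (adjusted p = 0.34). C3ar1 was tested and not called. Lyz2, S100a4 and S100a6 of the monocyte list were lower among 4 tested, with 4953 to 10021 CPM (median 7349.8) of Lyz2 in members and 10236 to 25479.5 CPM (median 13795) in Mrc1-positive C1q cells, without overlap (log2 fold change -0.99 ± 0.15 (SE), adjusted p = 0.00013). S100a6 lost its call in 8 settings and without any 1 of replicates 1, 2, 3, 5 and 7 (adjusted p of up to 0.74), and S100a4 lost it in the WT series alone (adjusted p = 0.529).

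S100a10, a partner of annexin A2, and Emp1, a membrane protein gene, completed the named genes on the lower side, with log2 fold changes of -2.03 ± 0.28 (SE) and -1.71 ± 0.24 (SE). Hbb-bs, a hemoglobin chain of red cells, was also called higher in members (log2 fold change 1.56 ± 0.26 (SE), adjusted p = 0.000397), with 10093 CPM in members and 4874 CPM in Mrc1-positive C1q cells of replicate 8. Members were the higher set in 5 of 7 mice. Without replicate 8 the gene did not pass the filter on low counts, and DESeq2 did not call it (adjusted p = 0.508). The directions of the 20 genes named by the rule held in every alternative in which they could be tested. The rule for naming them required 1 direction in all 7 mice, so leaving out mice could hardly turn a direction. Thinning to 500 UMIs left 7 of the 20 testable, all of them called, and a minimum of 1000 UMIs per cell left 13, of which 9 were called and Cd72, Cyp4f18, AW112010 and S100a10 were not. In the WT series alone 11 of 19 testable genes were called, and in the CB series alone 15 of 18. Without the mouse as a block 18 of 20 were called. Without replicate 4 and without replicate 5, 16 of 17 and 16 of 18 were called, and without replicate 7, 18 of 19. DESeq2 called 19 of 20. S100a10 lost its call in the WT series and at 1000 UMIs (adjusted p = 0.104 and 0.0681), and Retnla and Emp1 in the WT series (adjusted p = 0.0549 for both).

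**Figure D3:**
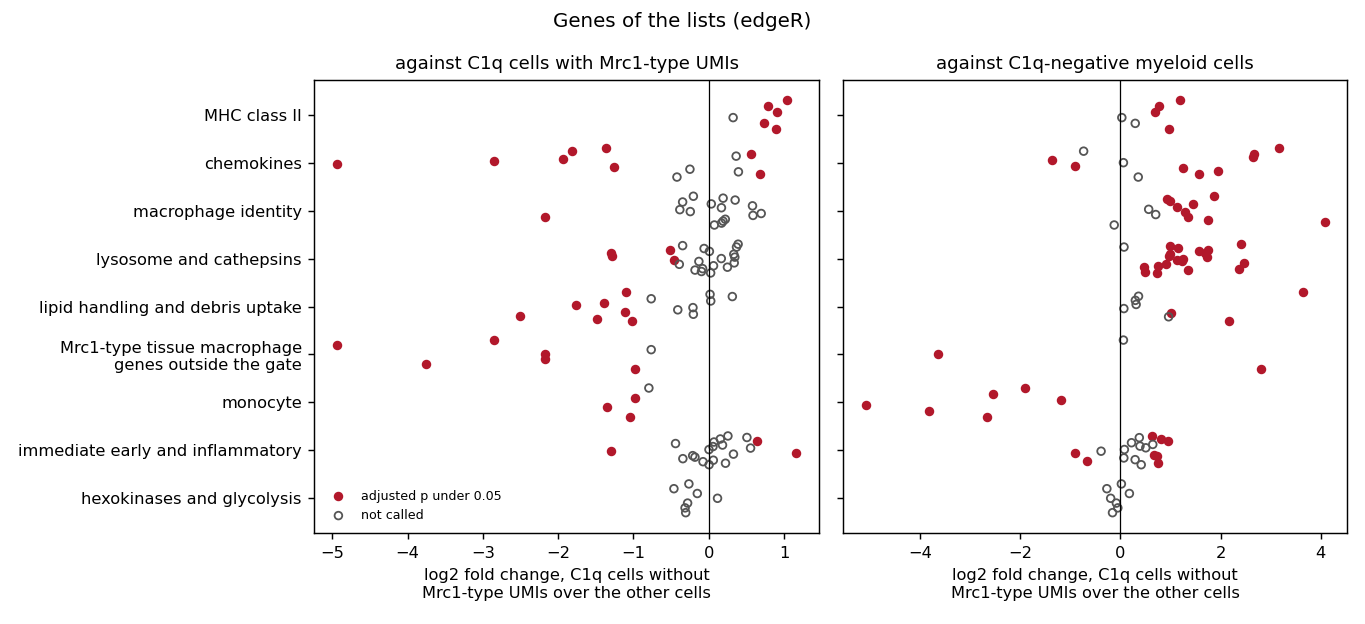
Log2 fold changes (edgeR, x axis) of the tested genes of 9 lists (y axis) in C1q cells without Mrc1-type UMIs over C1q cells with them (left) and over C1q-negative myeloid cells (right); each point is a gene, filled where the adjusted p was under 0.05. On the left 5 of 6 MHC class II genes are filled and right of 0 while 7 of 14 lipid-handling genes are filled and left of it, and on the right 20 of 21 lysosomal genes are filled and right of 0 while all 6 monocyte genes are filled and left of it.

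Against the C1q-negative myeloid cells, members were higher in macrophage, lysosomal and MHC class II genes and lower in monocyte genes. Of 897 genes tested, 239 were called, or 26.6%, with 133 higher (14.8%) and 106 lower (11.8%) in members. The 14 lymphoid genes, Lyz2, Fcer1g and Tyrobp were left out with the other gate genes. The other set was chosen for having no C1q UMI, so genes that go with C1q in single cells are not independent of that choice.

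Of 12 tested macrophage genes, 9 were called higher and none lower, beside 14.8% of all tested genes called higher. Of these 9, the WT series alone called 5. Some of the 9, such as Ms4a7, passed the filter mainly through the member sums and could hardly be called lower. The direction of this count is therefore partly set by the filter. Ms4a7 stood at 1110.1 to 2663 CPM (median 1358) in members and 0 to 394 CPM (median 44.9) in C1q-negative myeloid cells, without overlap (log2 fold change 4.07 ± 0.36 (SE), adjusted p = 2.95e-07). Aif1, a calcium-binding protein of macrophages, stood at 1109.5 to 2032 CPM (median 1440.1) against 263 to 635 CPM (median 396), without overlap (log2 fold change 1.87 ± 0.14 (SE), adjusted p = 6.95e-08). Csf1r stood at 365 to 619 CPM (median 494) against 43.8 to 359 CPM (median 159), without overlap (log2 fold change 1.45 ± 0.29 (SE), adjusted p = 0.00131). Csf1r lost its call in the WT series alone (adjusted p = 0.129), with at least 500 genes per cell (adjusted p = 0.139) and with at least 1000 UMIs per cell, which left 2 mice (log2 fold change 0.34, adjusted p = 0.896). Apoe differed by a log2 fold change of 3.64 ± 0.22 (SE), Vcam1 by 4.22 ± 0.45 and the adhesion molecule gene Cadm1 by 3.30 ± 0.39. C3ar1, Zmynd15, Ccl12, Fam46c, Selenop and Cd72 were the other genes named on this side, with log2 fold changes from 2.67 to 3.69. The sums of C1q-negative myeloid cells held 12606 to 89168 UMIs per mouse. In them Vcam1, Cadm1, C3ar1, Ccl12 and Fam46c had means of 31.8, 28.9, 21.7, 20.3 and 45.3 CPM. These 5 genes passed the filter mainly through the member sums, where they are high, and could hardly be called lower. The value of Zmynd15 was 3.09 without replicate 4 and 5.61 without replicate 2, which held 9 of its 12 UMIs in C1q-negative myeloid cells, and that of Vcam1 was 4.92 without replicate 8. Zmynd15, Fam46c and Cd72 were thus named by the rule on the higher side in both tests, which share the member sums. Genes not picked out this way, such as Cd74, H2-Ab1, Il1b and Cxcl16, were also called higher in both, and nothing is read from the overlap.

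Of 21 tested lysosomal genes, 20 were called higher in members, beside 14.8% of all tested genes. Of these 20, the WT series alone called 10, a minimum of 1000 UMIs per cell called 6, and a minimum of 500 genes called 12 of 19 that could be tested. Without cells that held UMIs of other lineages 13 of 19 were called, and with cells thinned to 500 UMIs 15 of 18. Ctsb, cathepsin B, stood at 2999 to 5973 CPM (median 4008) against 832 to 2249 CPM (median 1323), without overlap (log2 fold change 1.75 ± 0.18 (SE), adjusted p = 1.92e-06). Ctsd stood at 601 to 3809 CPM (median 1734) against 159 to 1062 CPM (median 482) (log2 fold change 1.68 ± 0.23 (SE), adjusted p = 3.78e-05). Among the MHC class II genes, 4 of 6 tested were called higher, beside the same 14.8%, and the median log2 fold change was 0.73. Cd74 stood at 12579.9 to 39149 CPM (median 21728) in members and 5663 to 20228 CPM (median 9552) in C1q-negative myeloid cells (log2 fold change 1.19 ± 0.15 (SE), adjusted p = 1.67e-05). With a minimum of 500 genes per cell, which left 5 mice, Cd74, H2-Aa, H2-Ab1 and H2-Eb1 were no longer called, with log2 fold changes of 0.90, 0.51, 0.47 and 0.58. None of these 4 was called with at least 1000 UMIs per cell, and of them Cd74 alone was called in the WT series. The C1q-negative myeloid cells also held dendritic-cell genes, whose list summed to 757 to 3286 CPM there and 140.4 to 659 CPM in members, and their part in this result was not tested.

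Of 11 tested chemokines, 6 were called higher in members here and 2 lower, beside 14.8% and 11.8% of all tested genes. Of these 8, the WT series alone called 5, the CB series alone 4 of 7 that could be tested, and a minimum of 1000 UMIs per cell 2 of 7. Among the higher calls, Cxcl1, Cxcl10, Cxcl16 and Ccl12 lost their call in at least 1 setting, and the direction of Cxcl1 turned with at least 1000 UMIs per cell. Ccl4 stood at 229.7 to 9431 CPM (median 2372) against 116 to 1928 CPM (median 442) (log2 fold change 2.65 ± 0.21 (SE), adjusted p = 6.95e-08). Ccl3 stood at 115 to 2959 CPM (median 1035) against 0 to 701 CPM (median 146), higher in members in 6 of 7 mice (log2 fold change 2.66 ± 0.28 (SE), adjusted p = 2.27e-06). H2-M2 stood at 203 to 929.7 CPM (median 412) against 0 to 789 CPM (median 23.3), also higher in 6 of 7 mice (log2 fold change 2.51 ± 0.61 (SE), adjusted p = 0.00534), and its adjusted p was 0.0583 without replicate 4, 0.208 with at least 500 genes per cell and 0.191 in the CB series alone. The log2 fold change ran from 2.06 without that mouse to 3.84 without replicate 2, which held 18 of the 33 UMIs in C1q-negative myeloid cells. With so few UMIs there, H2-M2 passed the filter mainly through the member sums and could hardly be called lower. Ccl3 and H2-M2 were put forward as markers of the members from these data, so their tests here are not independent evidence either. Ccl6 and Ccl9 were lower in members (-1.36 ± 0.33 and -0.91 ± 0.22 as log2 fold change ± SE), and lost their calls in 4 and 5 settings (adjusted p of up to 0.459 and 0.402). Il1b was called higher (log2 fold change 0.67 ± 0.22 (SE), adjusted p = 0.0358), but not in 6 alternatives, among them cells thinned to 500 UMIs (adjusted p = 0.351), or without any 1 of replicates 1, 3, 4, 5 and 7.

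All 6 tested genes of the monocyte list were lower in members, beside 11.8% of all tested genes. Of these, Plac8, S100a4 and Fn1 had means of 42.8, 96.1 and 53.0 CPM in members. These 3 genes passed the filter through the C1q-negative myeloid cells, where they are high, and could hardly be called higher in members. Plac8, a gene of blood monocytes, stood at 0 to 84.5 CPM (median 44.5) in members and 701 to 3760.5 CPM (median 1507) in C1q-negative myeloid cells, without overlap (log2 fold change -5.08 ± 0.33 (SE), adjusted p = 8.89e-09). S100a4, a calcium-binding protein of motile cells, stood at 0 to 229.7 CPM (median 76.4) against 1073 to 1880.2 CPM (median 1676), also without overlap (log2 fold change -3.81 ± 0.24 (SE), adjusted p = 7.91e-09). S100a6, Ccr2, Ms4a4c and the fibronectin gene Fn1 were the others called. Ms4a4c lost its call in 3 settings (adjusted p = 0.765 with at least 1000 UMIs per cell). Retnla fell here as well (log2 fold change -3.64 ± 0.50 (SE), adjusted p = 4.02e-05), and lost its call in the WT series alone (adjusted p = 0.0881). S100a10, its partner annexin A2 (Anxa2), the actin-binding protein gene Lsp1, the LIM protein gene Crip1 and the aspartic protease gene Napsa were the remaining named genes, with log2 fold changes from -2.95 to -2.22.

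Hexokinases, of which HK2 is the subject of the study, and the glycolytic enzymes gave no call in edgeR against either the Mrc1-positive C1q cells or the C1q-negative myeloid cells. In each of these comparisons 7 genes were tested and 0 had an unadjusted p under 0.05, beside 253 of 1026 and 335 of 897 over all tested genes. Over all tested genes 10% and 26.6% were called. DESeq2, which kept genes of lower counts, called 0 and 1 of the 16 genes it fitted, beside 91 of 8787 and 291 of 8493 over all genes it fitted. Its own filter left Hk1 and Hk3 in both, and Pfkp against the Mrc1-positive C1q cells, without an adjusted p, so these could not be called. The 1 gene called was Pfkp, a phosphofructokinase, with 0 to 76.6 CPM (median 18.5) in members and 63.1 to 233 CPM (median 89.5) in C1q-negative myeloid cells (log2 fold change -2.16 ± 0.62 (SE), adjusted p = 0.00918). Hk2, whose deletion the study concerns and which is intact in these mice, stood at 29.7 to 185 CPM (median 109.8) in members, 0 to 173 CPM (median 94.0) in Mrc1-positive C1q cells and 23.3 to 126 CPM (median 79.3) in C1q-negative myeloid cells. It rested on 72, 34 and 21 UMIs and did not pass the filter in edgeR. The DESeq2 log2 fold change of Hk2 was 0.13 ± 0.50 (SE) over Mrc1-positive C1q cells and 0.44 ± 0.57 (SE) over C1q-negative myeloid cells, so a difference was not detectable at this depth. In the C1q-negative immune cells Hk2 stood at 13.2 to 119 CPM (median 31.2), a description only, with a DESeq2 log2 fold change of 1.47 ± 0.47 (SE).

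Cell cycle genes gave no call in edgeR, with 4 genes tested and 1 at an unadjusted p under 0.05 against both the Mrc1-positive C1q cells and the C1q-negative myeloid cells. Over all tested genes, 253 of 1026 and 335 of 897 had such a p. DESeq2 called 0 of the 16 genes it fitted in both. Its own filter left at least Mcm6 in both, and Birc5 against the Mrc1-positive C1q cells, without an adjusted p, so these could not be called. The DESeq2 log2 fold change of Birc5 over Mrc1-positive C1q cells was -1.81 ± 0.65 (SE). The count of 0 is therefore partly set by that filter. Mki67, a proliferation marker, stood at 27.5 to 185 CPM (median 102) in members.

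Between mice, the levels of the members were close for some genes and far apart for others. Apoe varied from 27164 to 37818 CPM. Ccl4 varied from 229.7 CPM in replicate 8 to 9431 CPM in replicate 2, and Ccl3 from 115 to 2959 CPM in the same 2 mice. Spp1 varied from 280.0 CPM in replicate 5 to 8821 CPM in replicate 2. Mmp12, macrophage elastase, was highest in replicate 3 (1277 CPM) and lowest in replicate 8 (102 CPM). Replicate 8 also had the highest Hbb-bs (10093 CPM) and the highest Sparc (3343 CPM), a matrix gene of fibroblasts, while these genes were at 0 in the members of at least 1 other mouse. No condition in the labels separates the 7 mice, and no test was made of these differences.

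**Figure D4:**
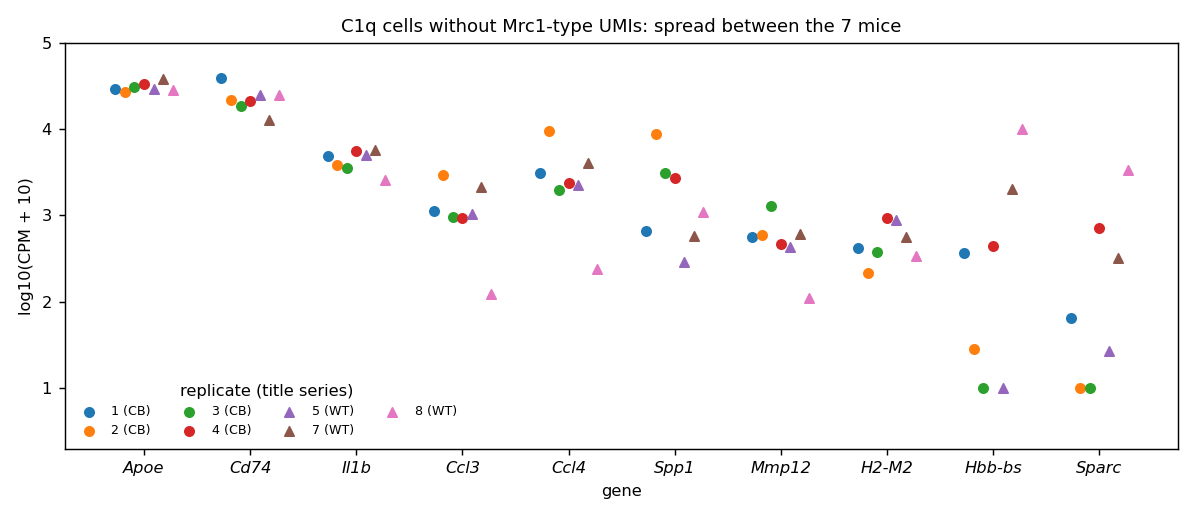
Levels of 10 genes (x axis) in the summed C1q cells without Mrc1-type UMIs of each mouse, as log10 of CPM plus 10; color gives the replicate, circles the CB and triangles the WT title series. Apoe lies between 27164 and 37818 CPM in all 7 mice, whereas Ccl3, Ccl4 and Mmp12 are lowest and Hbb-bs and Sparc highest in replicate 8.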

How the data were processed

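Drop-seq libraries of 7 tumors were used, 1 per mouse. The deposited values are counts of UMIs per gene and barcode, 1 matrix per library, which the authors made from reads mapped to mm10 (mouse) plus the PyMT sequence. The aligner and counting settings were not taken from the labels, since the genome build named there is not a mouse build. The matrices held 37000 barcodes with 15913827 UMIs in the 15047 cells kept. No doublet caller was run.

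The members and gene lists were chosen with earlier results of these data known. UMIs were summed per mouse and set of cells, with at least 10 cells per sum, and compared in edgeR 4.0.16 (R 4.3.3) with TMM scaling, filterByExpr, the mouse as a block and the quasi-likelihood test, adjusted by Benjamini-Hochberg with a threshold of 0.05. The mouse is a block by construction, as both sums come from 1 mouse. Gate genes were left out of each fit and its library sizes (Ptprc and Tyrobp only where they formed a gate). Genes named for size were, per comparison, the 10 with the highest and the 10 with the lowest fold among called genes that moved 1 way in every mouse, with at least 100 CPM in the higher set, and unnamed gene models were passed over. List members were named beside their counts. Steps were tested on simulated counts. Alternatives covered depth, gates, scaling, DESeq2 1.42.0 (genes with at least 10 UMIs in the sums), the filter, the block, the title series and each mouse left out. Python 3.11.15 with scipy 1.17.1 gave the exact tests, and positions follow GRCm38.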

Additional observations from a re-analysis of the deposited data

Results flagged for a closer look

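Of 38 values in members checked for a single mouse far from the other 6, chance alone would mark about 1 in 20 and 7 were marked. The C1q genes, which chose the members, were not checked, and Spp1, Mmp12, Hbb-bs and Sparc were taken in after their values were seen, so the count is not set against chance. Ccl4 was 9431 CPM in replicate 2 and 229.7 to 4045 CPM elsewhere. Ms4a7 was 2663 CPM in replicate 1 and 1110.1 to 1712 CPM elsewhere. Fam46c was 89.3 CPM in replicate 8 and 296 to 401 CPM elsewhere. Spp1 was 8821 CPM in replicate 2 and 280.0 to 3118 CPM elsewhere. Mmp12 was 1277 CPM in replicate 3 and 102 to 601 CPM elsewhere. Hbb-bs was 10093 CPM in replicate 8 and 0 to 2038 CPM elsewhere, and Sparc was 3343 CPM in replicate 8 and 0 to 709 CPM elsewhere. Replicate 8 held 3 of the 7 values.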

How the results depend on the processing

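Against C1q-negative immune cells, the 708 called genes became 375 with at least 500 genes per cell, 336 with at least 1000 UMIs per cell, 288 with cells thinned to 500 UMIs, 402 without UMIs of other lineages, 1096 with DESeq2, 1688 without a filter on low counts and 429 in the CB series alone. Against Mrc1-positive C1q cells, the 103 called genes became 52, 33 and 46 under the same 3 depth settings, 189 without a filter (60.3% of them higher in place of 36.9%), 46 without the replicate block and 35 in the WT series alone. Against C1q-negative myeloid cells, the 239 called genes became 80, 82 and 102 under the 3 depth settings, 104 without UMIs of other lineages, 473 without a filter (75.3% of them higher in place of 55.6%), 116 in the CB series alone and 101 in the WT series alone. The other settings in the methods, apart from leaving out a mouse, stayed within 1.5 times. The stricter depth settings also left fewer cells and mice, down to 2 mice for the myeloid comparison at 1000 UMIs. Leaving out 1 mouse gave 456 to 964, 67 to 130 and 162 to 257 called genes, and the lowest of each range was that without replicate 4, the mouse with 46.9% of the members.

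Without the replicate block, in which the mouse pairs the 2 sums, 540 genes were called against C1q-negative immune cells, 46 against Mrc1-positive C1q cells and 171 against C1q-negative myeloid cells. Against Mrc1-positive C1q cells, Arl5c, AU020206, Ccl3, Hbb-bs, Abca1, Arg1, C5ar1, Cd83, Ctsb, Ctsd, Ctsl, Fabp5, Gpnmb, Grn, H2-DMb1, Msr1, S100a6, Spp1, Timp2 and Trem2 lost their call without the block, and the other called genes of the lists and of the naming rule kept it.

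The difference in member share between the title series, 2.40 percentage points, became -0.037 of cells with Ptprc, Tyrobp or C1q UMIs. It became -0.82 without members that held UMIs of other lineages, with the share still taken of all cells. That value was 0.119 when replicate 8 was left out as well, a setting chosen after seeing the data. With 1 mouse left out the difference was 1.16 to 4.24. It was 3.96 with at least 500 genes per cell, 3.48 with at least 1000 UMIs, 3.93 with cells thinned to 500 UMIs, and 2.15 and 2.79 with a C1q sum of at least 5 and 2. No direction is given for 3 genes that were not called against Mrc1-positive C1q cells. Apoe, at 0.02, was -0.24 with at least 500 genes, -0.52 with at least 1000 UMIs, -0.12 thinned, -0.022 with a C1q sum of at least 2, -0.044 without the block, -0.24 in the WT series, -0.076 with at least 20 cells per sum, and -0.11 to 0.062 with 1 mouse left out. Csf1r, at 0.03, was -0.17 with at least 500 genes, -0.11 thinned, -0.0084 and -0.090 with a C1q sum of at least 5 and 2, -0.19 in the WT series, and -0.10 to 0.14 with 1 mouse left out. Ms4a7 was -0.091 with at least 1000 UMIs and -0.069 in the WT series.

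Against C1q-negative immune cells, an epithelial limit on both sets turned the sign of Trf (1.33), Ier3 (0.23) and Wfdc18 (0.15), Trf was 1.15 without UMIs of other lineages, and Selplg was 0.018 with at least 1000 UMIs. Against C1q-negative myeloid cells, Cxcl1 was -1.0 with at least 1000 UMIs. The cause of these changes was not tested. Members hold few UMIs each, so absence of a Mrc1-type UMI is a weak sign of absence of the mRNA, and genes under the filter could not be compared.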

Other observations

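The shares of all tested genes called higher and lower in members were 3.7% and 6.34% against Mrc1-positive C1q cells. They were 14.8% and 11.8% against C1q-negative myeloid cells. Of 6 tested interferon-stimulated genes, Ifi27l2a alone was called against Mrc1-positive C1q cells and was lower in members (log2 fold change -1.10 ± 0.18 (SE), adjusted p = 0.000325), a call lost in the WT series alone (adjusted p = 0.0724). Of 7 tested genes of matrix remodelling and growth factors, Arg1, the arginine-degrading enzyme arginase 1 (log2 fold change -2.27 ± 0.38 (SE), adjusted p = 0.00045), and Timp2, an inhibitor of matrix proteases (log2 fold change -1.02 ± 0.17 (SE), adjusted p = 0.000332), were lower along with Igf1. The call of Timp2 was lost in 5 settings and that of Arg1 without the mouse as a block. Against C1q-negative myeloid cells, 4 of 5 tested genes of that list were higher in members, among them Mmp12 (log2 fold change 1.38 ± 0.48 (SE), adjusted p = 0.0447) and Mmp14, a membrane-bound matrix protease (log2 fold change 1.70 ± 0.33 (SE), adjusted p = 0.000923). Mmp12 lost its call in 6 alternatives, with an adjusted p of up to 0.799, and without any 1 of replicates 1, 3, 4, 5 and 7. Mmp14 lost its call in 3, with an adjusted p of up to 0.439.

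Of 6 tested genes known from microglia, the macrophages of the brain, 2 were lower in members than in Mrc1-positive C1q cells, and these were Trem2 and Fcrls (log2 fold change -1.40 ± 0.24 (SE), adjusted p = 0.00045), of which Fcrls lost its call in the CB series alone (adjusted p = 0.0683). Of 6 tested receptors of chemokines and colony-stimulating factors 0 were called by edgeR or DESeq2 in that comparison and 3 had an unadjusted edgeR p under 0.05, whereas against C1q-negative myeloid cells Ccr2 was lower (log2 fold change -1.90 ± 0.19 (SE), adjusted p = 1.58e-06). The edgeR test and adjustment are those of the report, and the shares over all tested genes given at the start of this section apply.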
